A study of Homo sapiens with 4 samples.

Results

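Glioma cells can carry the transcripts of neural stem cells and of glia. Here 10 genes often used as such markers were followed, 5 transcription factors (SOX2, SOX9, OLIG2, SALL2 and POU3F2) and 5 other marker proteins (NES, PROM1, FABP7, GFAP and MSI1). They were chosen by name, with earlier results of these data known. Every probe set that the platform annotation gives to exactly 1 of these symbols was kept. That gave 27 probe sets of 49293, for 10 genes of 18132. A probe set is a group of short probes on the array that together report 1 transcript or several.

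SOX2, OLIG2, SALL2 and POU3F2 are transcription factors known to act together to keep glioblastoma cells in a stem-like state. SOX9 is a related factor that acts in glial progenitors and astrocytes. Nestin (NES) and GFAP are intermediate filament proteins, the first typical of neural progenitors and the second of astrocytes. PROM1 encodes the surface protein CD133, FABP7 a fatty acid binding protein of radial glia, and MSI1 an RNA-binding protein of neural progenitors.

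The cells were U87MG, an established human glioma line, with no other genotype given in the labels. Both groups were transfected with a plasmid, the miR-490 overexpression vector PC-490 in 1 group and its control vector PCDNA in the other, and harvested 48 h later. Each group had 2 PrimeView arrays, each from 100 ng of total RNA. The labels do not say whether the replicates were separate cultures, and p-values therefore cover the spread among these arrays alone, which may be technical.

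The microRNA carried by the overexpression vector is shown because it is the stated difference between the groups. A microRNA guides silencing proteins to messenger RNAs mainly through its seed, bases 2 to 8, given here in capitals. The sequences are from RefSeq (GRCh38.p14), 5′ to 3′, on the plus strand of chromosome 7, at chr7:136903242-136903263 for the 3p arm and chr7:136903205-136903224 for the 5p arm.
hsa-miR-490-3p: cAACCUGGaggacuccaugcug
hsa-miR-490-5p: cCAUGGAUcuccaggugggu
The arms have different seeds. The labels do not say which arm the vector yields, and neither arm was analysed here, so the overexpression itself has no check in these data.

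Most of the 10 genes had low signals in U87MG with either vector, SOX9 being the clearest exception, and no probe set of any of them passed the test for a difference between the vectors. Levels are given as the log2 value minus the median of the same array, so 0 is the signal of a typical probe set. Above that median on all 4 arrays lay 4 of the 27 probe sets, 3 of SOX9 and 1 of GFAP, against 48.5% of all probe sets. Another 21 lay below it on all 4 arrays, and 2 were on both sides. Above the upper quartile of every array lay 1, of SOX9, against 24.0% of all probe sets. Below the lower quartile of every array lay 9 of the 27, against 22.0% of all probe sets. In 7 genes (SOX2, OLIG2, SALL2, POU3F2, NES, PROM1 and MSI1) every probe set was below the median on every array. Probe sets bind with different strength, so each is set against the array median only, and a low value can be a poor probe as well as little RNA. Fewer cells with a transcript and less of it per cell cannot be told apart in bulk RNA.

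**Figure D1:**
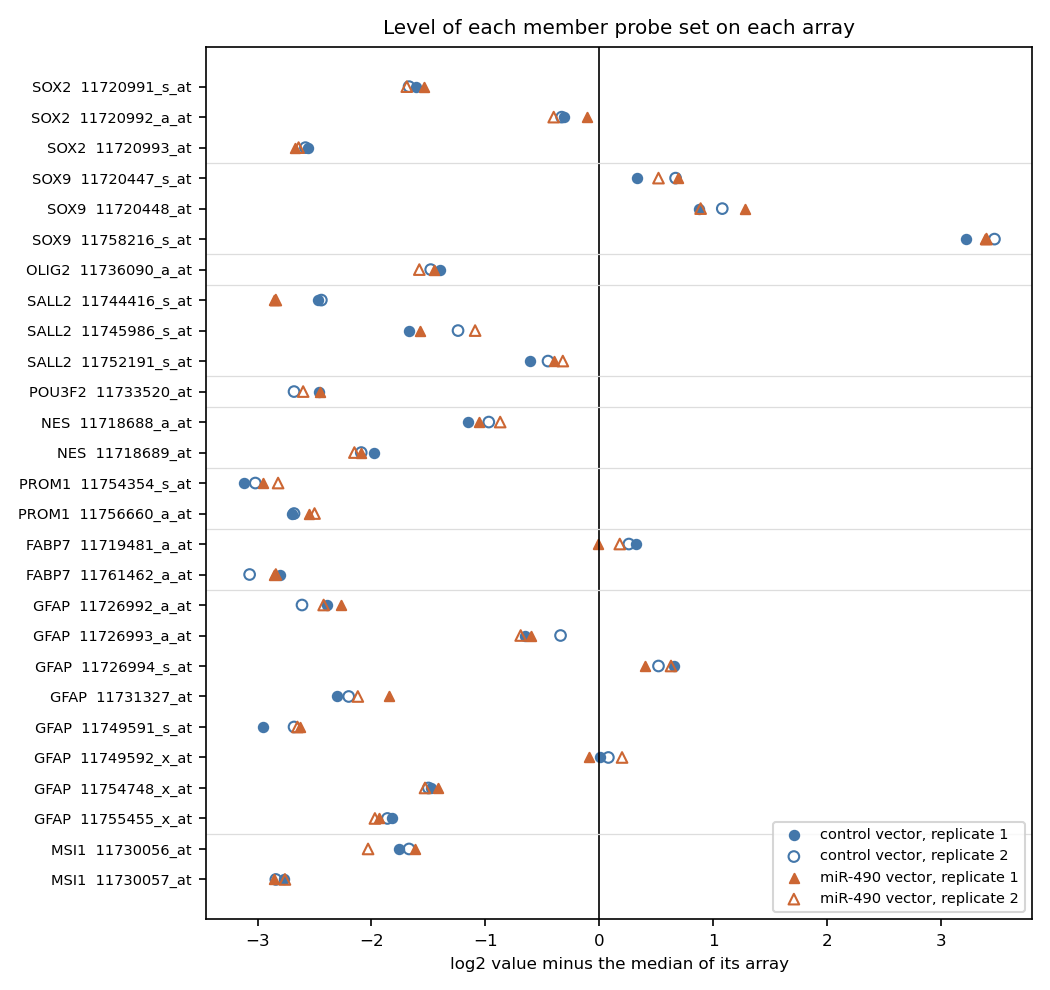
Level of each of the 27 member probe sets on each of the 4 arrays, as the log2 value minus the array median (x axis); circles are the control vector, triangles the miR-490 vector, filled symbols replicate 1 and open symbols replicate 2. The 3 SOX9 probe sets lie to the right of 0 on all arrays, most others lie to the left, and the symbols of both vectors are interleaved in most lines.

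Between the vectors, 0 of the 27 probe sets passed the threshold of an adjusted p of 0.05 (limma, Benjamini-Hochberg over all 49293 probe sets), where the share over all probe sets was also 0%. The smallest adjusted p among the members was 0.90. At an unadjusted p under 0.05 there was 1 member probe set, 3.70% of them, against 5.15% of all probe sets. It was lower with miR-490, as were 2.48% of all probe sets at that level, while 2.66% were higher. An ordinary test without moderation also gave 0 past the adjusted threshold. It put 3 of the 27 member sets at an unadjusted p under 0.05, against 5.31% of all probe sets. The groups did not overlap in 9 of the 27 probe sets, 5 higher and 4 lower with miR-490, which is 33.3% against 31.2% of all probe sets (15.6% in each direction). For any 1 probe set, 2 arrays a group allow an exact permutation p (two-sided) of no less than 0.333. Higher means with miR-490 were seen in 18 and lower means in 9, with a median log2 fold change of 0.06 over the 27 and of 0 over all probe sets. Over all probe sets 24514 means were higher and 23561 lower.

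SOX9, which acts in glial progenitors and astrocytes, had the signals farthest above the array median. Its probe set 11758216_s_at was at 8.37 and 8.63 on the control arrays and at 8.55 and 8.57 on the miR-490 arrays (log2), which is 3.22 to 3.47 above the medians. The miR-490 arrays lay between the control arrays, and the log2 fold change was 0.06 (95% interval -0.22 to 0.34; limma adjusted p = 0.99). Both other SOX9 probe sets were nearer to the median, at 0.33 to 0.69 above it for 11720447_s_at and 0.88 to 1.28 above it for 11720448_at. Each had a log2 fold change of 0.12, with 95% intervals of -0.25 to 0.48 and -0.29 to 0.52. Control replicate 1 gave the lowest value of all 3 sets. Without it the log2 fold changes were -0.07, -0.06 and 0.01, so the sign of the first 2 of them rested on that array. Without miR-490 replicate 1 the log2 fold change of 11720448_at was -0.08.

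SOX2, the best known stem cell factor of the group, had 3 probe sets, all below the median. The one nearest to it, 11720992_a_at, was at 4.84 and 4.83 on the control arrays and at 5.05 and 4.77 on the miR-490 arrays (log2). One miR-490 array was above both controls and the other below both, and the log2 fold change was 0.08 (95% interval -0.22 to 0.37). The set 11720991_s_at was 1.54 to 1.69 below the median and had a log2 fold change of 0.04 (-0.17 to 0.24). The set 11720993_at was at 2.59 and 2.58 against 2.49 and 2.53, below the lower quartile of every array, and had a log2 fold change of -0.08 (-0.24 to 0.09). The largest fold that any of these 3 intervals includes is 1.29 upward and 0.844 downward. With the 3 sets averaged, the log2 fold change of SOX2 was 0.01 (95% interval -0.16 to 0.18).

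OLIG2, a factor of the oligodendrocyte lineage, was read by 1 probe set. It gave 3.75 and 3.68 on the control arrays and 3.71 and 3.59 on the miR-490 arrays (log2), 1.40 to 1.58 below the medians. The groups overlapped and the log2 fold change was -0.07 (95% interval -0.27 to 0.14). POU3F2, a factor of neural progenitors also called BRN2, was likewise read by 1 set, at 2.69 and 2.48 against 2.71 and 2.57. That is below the lower quartile of every array, the groups overlapped, and the log2 fold change was 0.06 (-0.22 to 0.33).

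SALL2, a zinc finger factor, held the member probe set with the smallest p, 11744416_s_at. It was at 2.68 and 2.72 on the control arrays and at 2.30 and 2.33 on the miR-490 arrays (log2). Both miR-490 values were lower, with a log2 fold change of -0.39 ± 0.065 (SE), a fold of 0.766 (unadjusted p = 0.0024, limma adjusted p = 0.90; adjusted p from 0.64 to 0.95 over the alternatives). This was the one member interval that excluded 0 (-0.56 to -0.21). The set lay below the lower quartile of every array, 2.44 to 2.86 below the medians.

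The other SALL2 probe sets, which were nearer to the median, had the opposite sign. The set 11752191_s_at was at 4.54 and 4.71 against 4.76 and 4.85, both miR-490 values being higher, and its log2 fold change was 0.18 (95% interval -0.05 to 0.41). The set 11745986_s_at was at 3.48 and 3.92 against 3.59 and 4.08, where the replicates of a group differed by up to 0.49, and its log2 fold change was 0.14 (-0.45 to 0.72). The sign of 11745986_s_at rested on single arrays. Its log2 fold change was -0.085 without control replicate 1 and -0.11 without miR-490 replicate 2. Without control replicate 2 it was 0.355, and without miR-490 replicate 1 it was 0.38. With the 3 sets averaged, the log2 fold change of SALL2 was -0.02 (-0.28 to 0.24). All 3 have names ending in _s_at, which Affymetrix gives to sets whose probes match several transcripts. The same limit holds for the SOX9 sets 11758216_s_at and 11720447_s_at and the GFAP set 11726994_s_at, all above the median on all arrays. The remaining SOX9 set, 11720448_at, was 0.88 to 1.28 above the median.

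Nestin, the progenitor filament, was below the median in both of its probe sets. The set 11718688_a_at was at 4.0 and 4.19 on the control arrays and at 4.10 and 4.30 on the miR-490 arrays (log2). The groups overlapped, at a log2 fold change of 0.11 (95% interval -0.18 to 0.39). The set 11718689_at, 1.98 to 2.15 below the medians, had a log2 fold change of -0.08 (-0.27 to 0.12).

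PROM1, the gene of CD133, was higher with miR-490 in both probe sets without overlap, at signals near the floor of the arrays. The set 11756660_a_at was at 2.45 and 2.48 against 2.61 and 2.67 (log2), and the set 11754354_s_at at 2.03 and 2.14 against 2.21 and 2.35. In each, both miR-490 arrays exceeded both controls, as in 15.6% of all probe sets. Probe sets of 1 gene share the same RNA, so these are not independent. The log2 fold changes were 0.18 (95% interval -0.00040 to 0.35) and 0.20 (-0.03 to 0.42), with an adjusted p of 0.90 for both (limma). Averaged over both sets, PROM1 had a log2 fold change of 0.19 ± 0.068 (SE; unadjusted p = 0.036, limma adjusted p = 0.91 over 18132 genes). Among all genes averaged in that way, 5.29% had an unadjusted p under 0.05. Both sets lay below the lower quartile of every array, 2.50 to 3.12 below the medians.

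FABP7, the radial glia lipid carrier, had 1 probe set beside the median and 1 far below it. The first, 11719481_a_at, was at 5.47 and 5.42 on the control arrays and at 5.15 and 5.35 on the miR-490 arrays (log2). Both miR-490 values were lower, but the replicates with miR-490 differed by 0.20, about as much as the groups, and the log2 fold change was -0.20 (95% interval -0.44 to 0.05; limma adjusted p = 0.90). It was -0.10 without miR-490 replicate 1 and -0.30 without miR-490 replicate 2. The second, 11761462_a_at, was 2.80 to 3.07 below the medians with a log2 fold change of 0.10 (-0.18 to 0.37).

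GFAP, the filament of astrocytes, was read by 8 probe sets that spanned from 2.73 below to 0.55 above the median. The set 11726994_s_at was at 5.81 and 5.68 on the control arrays and at 5.56 and 5.80 on the miR-490 arrays (log2), the single GFAP set above the median on all 4. Its groups overlapped and the log2 fold change was -0.07 (95% interval -0.35 to 0.22). The set 11749592_x_at was at the median, between 0.09 below and 0.20 above it, with a log2 fold change of 0.02 (-0.29 to 0.33). Names ending in _x_at, which 3 of the 8 have, mark sets with probes that can also bind unrelated transcripts.

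Among the 6 GFAP sets below the median, the log2 fold changes ran from -0.14 to 0.28. The largest was that of 11731327_at, at 2.85 and 2.96 against 3.31 and 3.05. Both miR-490 values were higher, and the log2 fold change was 0.28 (95% interval -0.02 to 0.57; limma adjusted p = 0.90). It was 0.15 without miR-490 replicate 1 and 0.41 without miR-490 replicate 2. The set 11749591_s_at also had both miR-490 values higher, at 2.20 and 2.48 against 2.53 and 2.52, and its log2 fold change of 0.19 was 0.05 without control replicate 1 and 0.33 without control replicate 2. In contrast, 11755455_x_at had both lower, at 3.33 and 3.30 against 3.23 and 3.20. Of the 8 sets 5 had higher and 3 lower means, and their average had a log2 fold change of 0.05 (-0.10 to 0.19).

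MSI1, the RNA-binding protein Musashi-1, was below the median in both sets. The set 11730056_at was at 3.39 and 3.49 on the control arrays and at 3.54 and 3.14 on the miR-490 arrays (log2). The 2 miR-490 arrays lay on either side of the controls, and the log2 fold change was -0.10 (95% interval -0.49 to 0.29). The set 11730057_at had a log2 fold change of 0.01 (-0.19 to 0.20), at 2.76 to 2.86 below the medians.

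**Figure D2:**
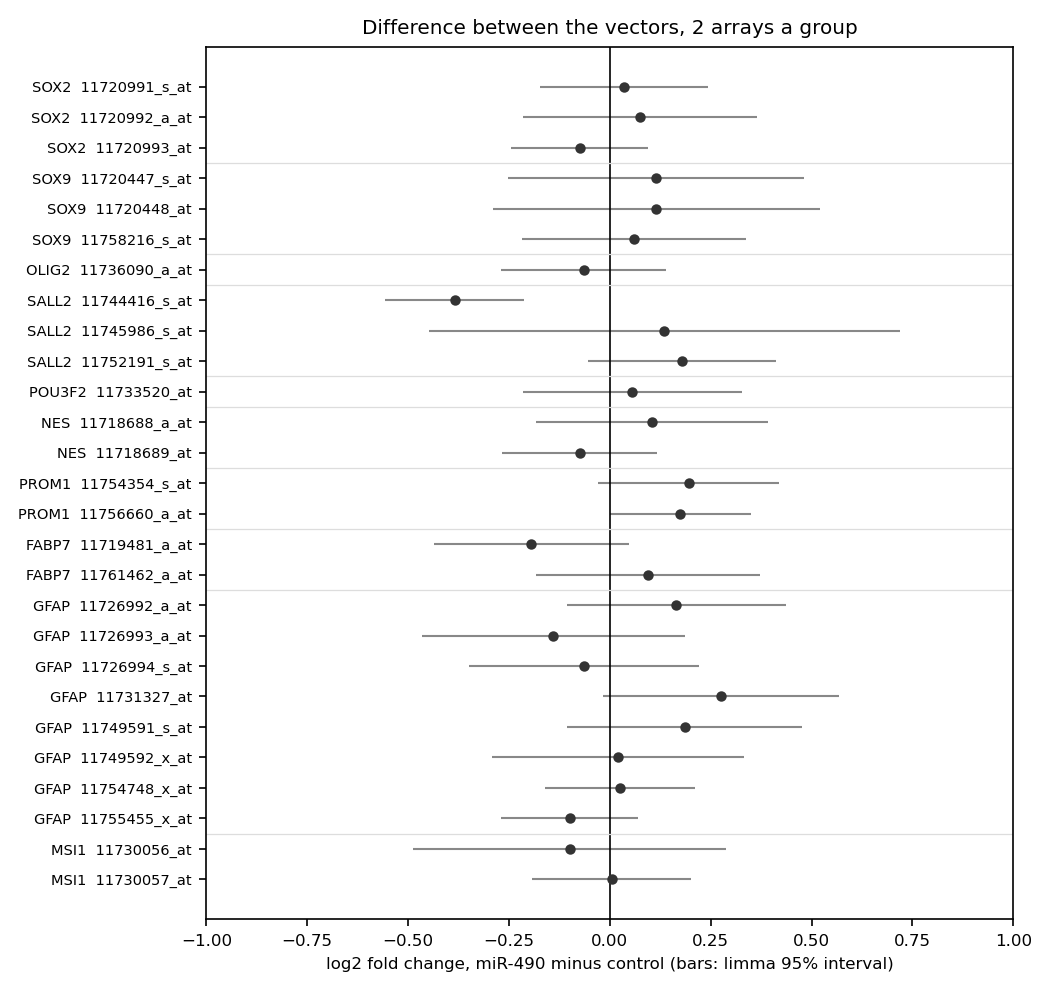
Log2 fold change of each member probe set (x axis, miR-490 minus control, 2 arrays a group) with its limma 95% interval as a bar. The interval of 1 SALL2 set lies wholly below 0, the other 26 include 0, and all 27 stay within a log2 value of 1 in either direction.

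The 95% intervals gave the precision for these genes. Of the 27 intervals 26 included 0, and all lay between -0.56 and 0.72, that is between 0.680 and 1.65 times the control level. The median distance from the estimate to the end of its interval was 0.27. RMA can compress low signals, so a fold of a dim transcript may be understated, which was not tested here. Of the 8 genes with more than 1 probe set, 6 had sets of both signs, while the sets of SOX9 and PROM1 had 1 sign.

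The size of a difference was then set against the gap between replicate arrays of the same group. In 7 of the 27 probe sets the difference between the group means exceeded the larger replicate gap, 25.9% against 21.7% of all probe sets. These were 2 sets each of SALL2, PROM1 and GFAP and 1 of SOX2. Only in the SALL2 set 11744416_s_at was the difference over 0.3, at 0.39 against a gap of 0.04. Over the 27 sets, log2 values of paired arrays differed with an SD of 0.18 for the control pair and 0.20 for the miR-490 pair, and of 0.17 to 0.21 for pairs from different groups. By this SD, which leaves out any shift shared by the 27 sets, pairs from different groups were in about the same range as replicate pairs.

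**Figure D3:**
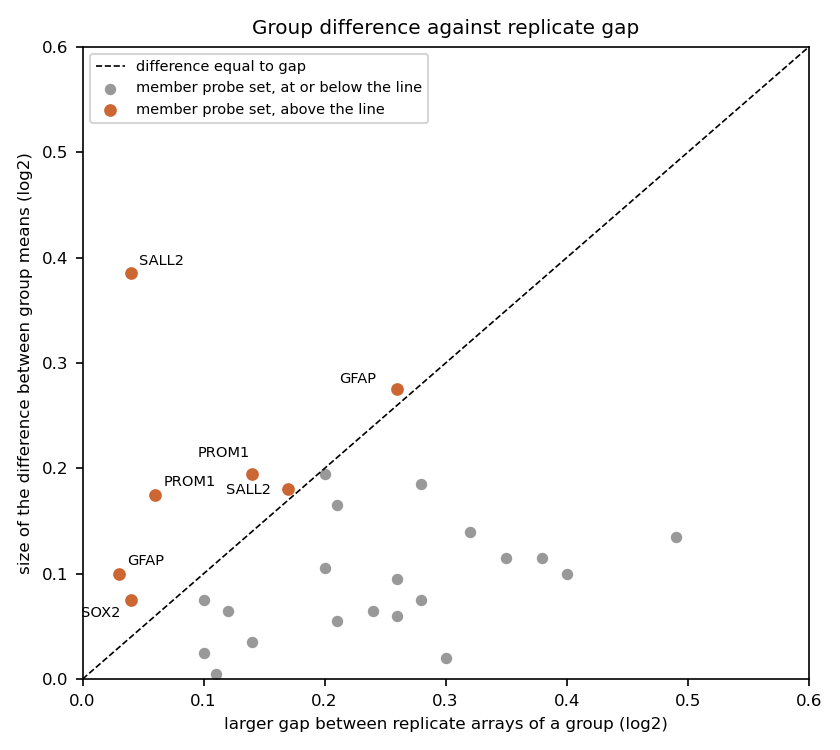
Size of the difference between group means (y axis, log2) against the larger gap between the 2 replicate arrays of a group (x axis, log2) for the 27 member probe sets; the dashed line marks equality. The 7 named points lie above the line, and the SALL2 point at 0.39 stands far from the rest.

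Related genes were listed by lineage, with no list tested as a set. The 9 lists held 138 genes, of which 131 were measured by 407 probe sets and 7 were not analysed here. With limma 0 of the 407 probe sets passed the adjusted threshold, and 32 had an unadjusted p under 0.05, 14 higher and 18 lower with miR-490, which is 7.86% against 5.15% of all probe sets. Neural progenitor regulators (28 genes, 82 probe sets) had a median log2 fold change of 0.01. Most were dim, with 57 of the 82 sets below the array median on all arrays. Above it on all arrays were 23, 28.0%, against 48.5% of all probe sets. In that list POU3F3, a relative of POU3F2, had the probe set with the smallest p, with a log2 fold change of 0.39 at 2.34 below the array median (adjusted p = 0.90), while its other set gave -0.21. Among the brightest, SALL1 and SOX4, relatives of SALL2 and SOX2, had sets 3.10 and 2.88 above the median, with log2 fold changes of 0.05 and -0.02. HES1, a Notch target of progenitors, was at 2.25 above the median with a log2 fold change of 0.11. Astrocyte genes (18 genes, 56 sets) had a median of -0.02, and 22 of these sets, 39.3%, were above the array median on all arrays. The brightest belonged to the filament gene VIM (8.76 above the median), the gap junction gene GJA1 (7.54) and the glycolytic gene ALDOC (5.85). Of the 18 genes, 10 had a set above the median on all arrays. Every set of AQP4, S100B and ALDH1L1, singled out after their values were seen, was below the median on every array. SLC1A2, a glutamate transporter, had a log2 fold change of -0.57 in 1 dim set and of -0.17 to 0.10 in the others (adjusted p = 0.90 for the first). Oligodendrocyte lineage genes (15 genes, 50 sets) had a median of 0.02 and neuronal genes (17 genes, 55 sets) a median of 0.

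Of the 49 probe sets of genes linked with mesenchymal glioma, 35 were above the array median on all arrays, 71.4%, against 48.5% of all probe sets. The filament gene VIM and the matrix gene TGFBI had sets 8.76 and 8.80 above the median, with log2 fold changes of 0.01 and -0.01. The list of glioma stem cell maintenance genes (20 genes, 67 sets) had 32 sets above the median on all arrays. CD44, a hyaluronan receptor that both lists hold, had its brightest set 6.81 above the median, with a log2 fold change of -0.16. Markers of other cells were mostly dim. Of 29 leukocyte and microglia sets 25 were below the median on all arrays, those of PTPRC among them, and the 4 above it belonged to CD68 and CSF1R. The summed linear signal of that list was 1917 to 1993 on the control arrays and 1903 to 1922 on the miR-490 arrays. Most of that sum came from CD68, whose brightest set was at 10.25 and 10.19 against 10.18 and 10.16 (log2). The sum therefore says little of the dim sets. Of 17 endothelial and 14 epithelial sets, 15 and 13 were below the median on all arrays. The median log2 fold change was -0.01 for the mesenchymal, stem cell maintenance and epithelial lists, -0.02 for the endothelial list and 0 for the leukocyte list. VIM and CD44 each stand in 2 lists.

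**Figure D4:**
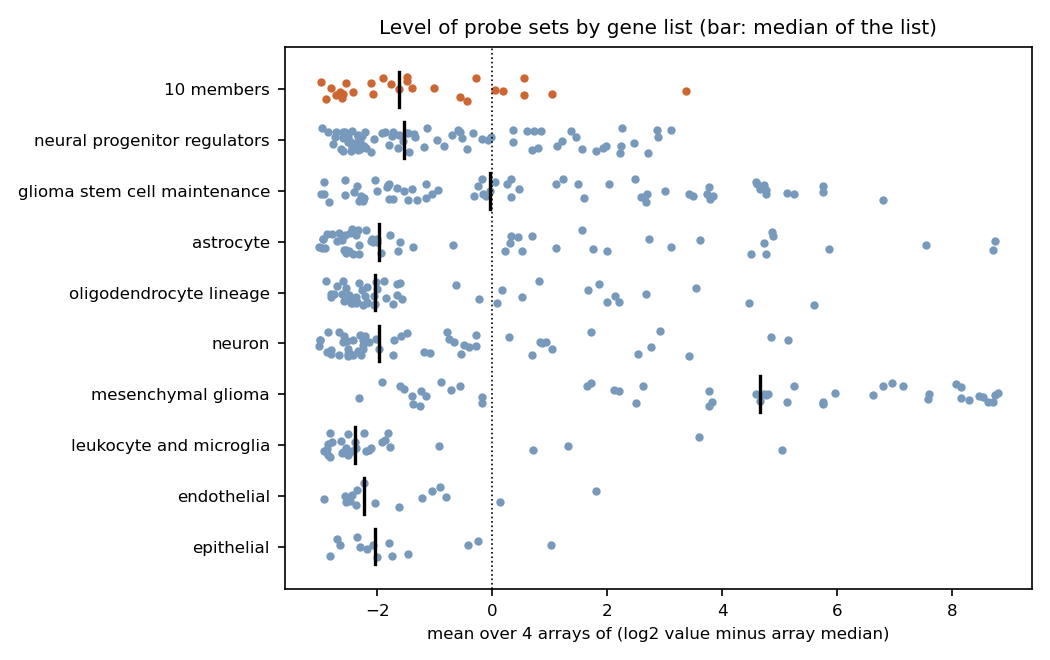
Mean level over the 4 arrays, as the log2 value minus the array median (x axis), of each probe set in the members and in the 9 related lists; points are probe sets, spread vertically at random, and black bars are list medians. The members' median is 1.63 below the array median and that of the mesenchymal list 4.66 above it.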

How the data were processed

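The authors made the deposited log2 values per probe set with RMA, according to the submitters' processing notes. This method corrects background, makes array distributions alike and summarises probes, so a shift of most transcripts cannot be seen. For its software and settings nothing is given in the sources used here. The array medians were 5.15 to 5.17, and precision is limited by the number of arrays. The platform annotation gives 1 gene symbol to 44988 of the 49293 probe sets, several to 1832 and none to 2473; 44961 were matched to current RefSeq symbols.

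limma 3.58.1 in R 4.3.3 fitted all probe sets (lmFit, then eBayes with neither trend nor block), with 2 residual and 2.73 prior degrees of freedom. Tests were two-sided and adjusted by Benjamini-Hochberg over all probe sets. Figures used matplotlib 3.10.9. The fit was run on simulated arrays with independent noise as a check of the code, and nothing on power is drawn from it. All member probe sets were named. From each related list the gene of the set with the smallest p and the brightest were picked, up to 4 genes. Not every gene picked in that way is named in the text. Other sets of those genes, and AQP4, S100B, ALDH1L1, PTPRC and MSI2, were added for comparison after the values were seen. The members and lists were chosen with earlier results of these data known. Alternatives were quantile normalisation, median centring, an intensity trend, a trend plus robust prior, a filter on dim sets, 1 set or the mean per gene, an ordinary test, each replicate left out and the replicate number as a block. No batch was tested, since scan dates were not used here.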

Additional observations from a re-analysis of the deposited data

How the results depend on the processing

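The count of member probe sets past the adjusted threshold was 0 in the reported fit and in all 13 alternatives run, as was the count over all probe sets, with the smallest adjusted p over all probe sets at 0.34 with the trend plus robust prior. The members' median log2 fold change ranged from 0.01 to 0.08 over the alternatives. At an unadjusted p under 0.05 the reported count of 1 of 27 became 0 of 6 with dim sets filtered out (4.91% of all sets kept). With the ordinary test it was 3 of 27 (5.31% of all). With 1 array left out the count is not given, since such a fit assumes that a lone array varies like the other group. These counts at an unadjusted p were added after seeing the data. The 9 sets without overlap became 1 of 6 with dim sets filtered out (31.6% of all sets kept), and 3 of 10 with the highest set per gene and 2 of 10 with the mean per gene (32.6% and 32.5% of all genes), where fewer sets were counted. Of 286 alternatives of single member sets 0 were called, 19 had the other sign and 1 was at 0; 13 of the 27 sets kept their sign throughout, and the value of 23 moved by over 1.5 times when 1 array was left out. The mean per gene gives no value for a single set. Of 117 alternatives of list medians, 17 had the other sign, 23 were at 0 there or in the reported fit but not in both, and 4 moved by more than 0.06, the spread of the members' median between replicates. Against the array mean, 3 member sets lay above on all arrays in place of 4.

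Same-numbered arrays did not deviate together (correlation -0.084 over all probe sets), and no label says that a number marks a shared preparation. In the fit with replicate number as block, 0 member sets passed, 1 had an unadjusted p under 0.05 and their median was 0.06; the block changed no call. Most member sets lay below the array median, where RMA can compress differences, which was not tested here.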

Other observations

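Among related genes, ALDH1A3, an aldehyde dehydrogenase used as a marker of mesenchymal glioma stem cells, was well above the array median in 4 of its 5 probe sets. Its brightest set was at 9.89 ± 0.021 on the control arrays and 9.65 ± 0.0071 on the miR-490 arrays (log2, SD, n = 2). Both miR-490 values were lower, without overlap, in each of these 4 sets, with log2 fold changes of -0.18 to -0.30, and the other, dim set gave -0.04. Of all probe sets, 15.6% were lower with miR-490 without overlap. No ALDH1A3 set passed (limma adjusted p = 0.90 for its brightest), and probe sets of 1 gene share the same RNA, so they are not independent. MSI2, a relative of MSI1, had log2 fold changes of -0.32 to 0.11 over 5 sets. AIF1, a microglial marker, had log2 fold changes of -0.13 to 0.39 over 5 sets, with -0.13 in the brightest. Each of these AIF1 sets lay below the array median on every array, the brightest at 0.92 below it on average.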
